A study of Mus musculus with 6 samples.

Results

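The 10 genes described here are the glucocorticoid receptor gene Nr3c1, the receptor-responsive genes Klf15, Zbtb16, Fkbp5, Glul, Tsc22d3, Sgk1 and Ddit4, and the metallothionein genes Mt1 and Mt2. They were chosen by gene symbol among the 52550 mouse genes of the deposited table, with earlier results of these data known. All 10 passed the filter on low counts that left 13396 genes for comparison. RNA came from skeletal muscle of 3 male FLExDUX4 mice and 3 male wild-type mice (WT). The FLExDUX4 mice were hemizygous for an inverted human DUX4 transgene at the Rosa26 locus, without a Cre driver, and the transgene is known to be expressed at a very low level in that state. The labels give quadriceps at 13 weeks, whereas the study's methods give triceps and a younger age. Libraries were made with QuantSeq, which reads the 3′ end of polyadenylated RNA, so that counts per 1000000 (CPM) compare transcripts between genes without a length term. Only the count summed over each genotype was used, 13110125 counts on genes for FLExDUX4 and 18367364 for WT. Columns of individual animals were left aside, since their headings match none of the sample labels. The totals look like sums of those columns, but columns were not assigned to a genotype from their values, so the spread between mice that they hold is not given. No test across mice was therefore made, and every interval below is a 95% interval for counting error only, to which the differences between mice would add.

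Glucocorticoids bind a receptor that is held in the cytoplasm by HSP90 and its co-chaperones, and the bound receptor enters the nucleus and acts on its target genes. In skeletal muscle these hormones are known for favoring protein breakdown, amino acid release and a shift of fuel use toward fatty acids. The metallothionein genes respond to glucocorticoids and, through another factor, to zinc.

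Of the 10 genes, Klf15, Zbtb16, Fkbp5 and Glul were 1.92 to 2.11 times higher in the FLExDUX4 total, while the receptor gene itself and the targets Tsc22d3 and Sgk1 differed far less. Mt1 and Mt2 were moderately higher and Ddit4 was lower. Levels in WT ran from 13.6 CPM for Klf15 to 239 CPM for Glul, and the 10 genes together took 1224 CPM in FLExDUX4 and 842.6 CPM in WT. By the log2 ratio of the totals, scaled with the TMM method, 4 of the 10 genes were at least 1.5-fold higher and 0 at least 1.5-fold lower. Among all genes compared 13.2% were at least 1.5-fold higher and 13.5% at least 1.5-fold lower. Genes with few counts make up most of those, and every gene described here had at least 594 counts over both totals. Among the 4577 genes with at least 500 counts, a minimum chosen after the data were seen, 1.73% were at least 1.5-fold higher and 0.896% at least 1.5-fold lower. Since the 10 genes were chosen with earlier results known, these shares are set beside their counts as a description and not as a test. The counting interval lay above 0 for 8 of the 10 genes, beside 20.5% of all genes compared (23.1% of those with at least 500 counts), and below 0 for 1, beside 20.6% (23.0%). With spike-in scaling, described next, these counts were 5 and 4, and the intervals of Nr3c1 and Tsc22d3 passed from above to below 0. Shares of all genes, here and below, are those under TMM scaling.

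**Figure D1:**
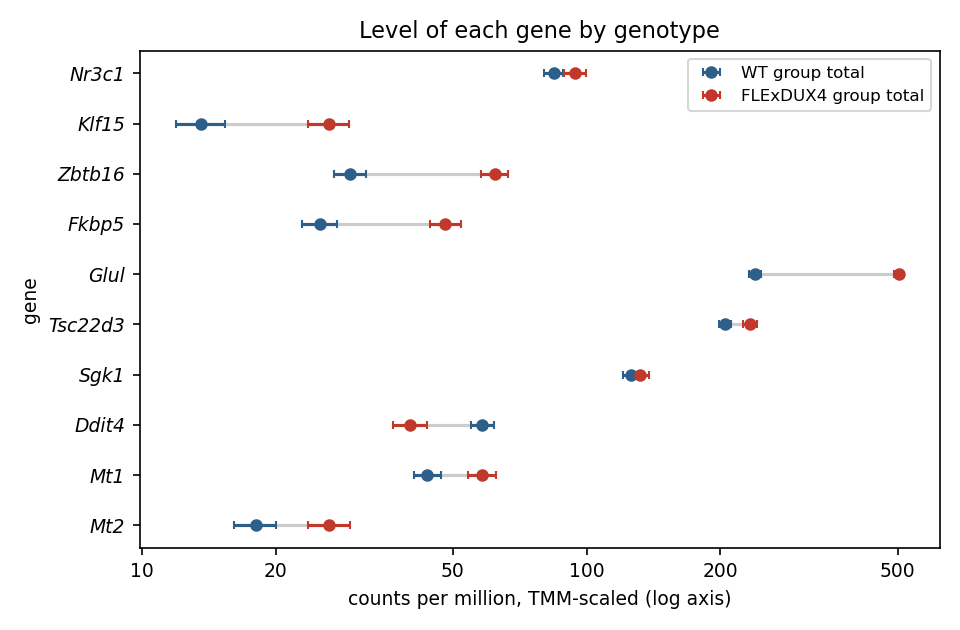
Level of each gene in the FLExDUX4 (red) and WT (blue) group totals, in TMM-scaled counts per 1000000 on a log axis; bars are exact 95% Poisson intervals for counting error. Klf15, Zbtb16, Fkbp5 and Glul show the widest gaps, with Glul at 503 CPM in FLExDUX4 and 239 CPM in WT, and under TMM scaling Ddit4 is the gene whose FLExDUX4 level is the lower, joined by Nr3c1, Tsc22d3 and Sgk1 under spike-in scaling.

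The scaling matters for the genes with small differences. When the totals were scaled to the ERCC and SIRV spike-in RNAs instead, the log2 ratio of every gene fell by 0.28, and the median of all genes compared went from about 0 (-0.001) to -0.28. The split of the 10 genes into higher and lower was 9 and 1 under TMM and 6 and 4 under spike-in scaling. Under TMM 49.9% of all genes compared, and 50.4% of those with at least 500 counts, were higher. Klf15, Zbtb16, Fkbp5 and Glul remained at least 1.5-fold higher under both.

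**Figure D2:**
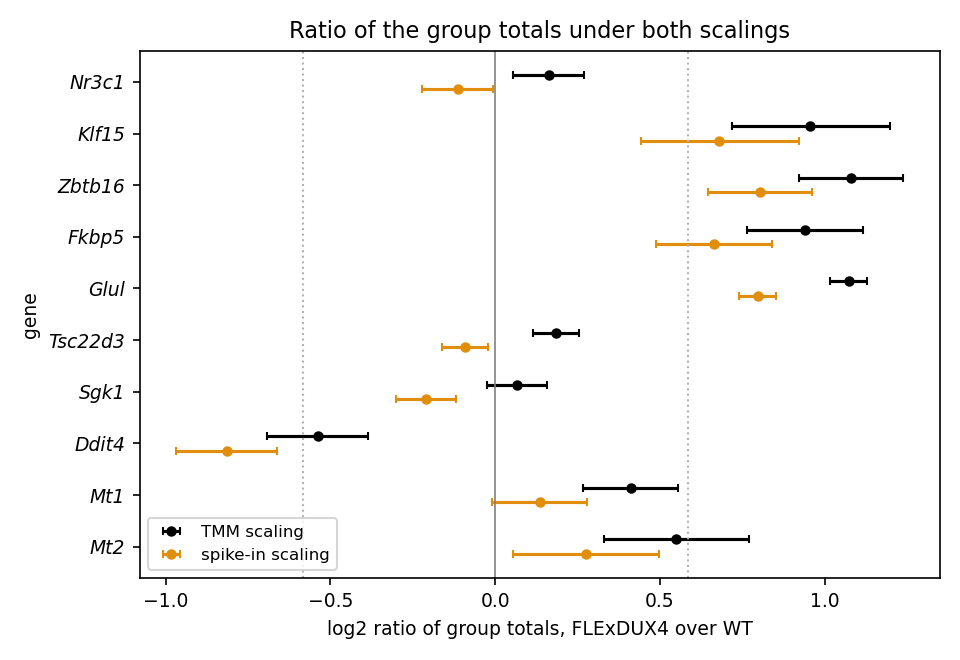
Log2 ratio of FLExDUX4 over WT for each gene under TMM scaling (black) and spike-in scaling (orange), with 95% counting intervals; dotted lines mark 1.5-fold. The points of Nr3c1, Tsc22d3 and Sgk1 lie on different sides of 0 under the 2 scalings, at 0.16 and -0.11, 0.18 and -0.091, and 0.07 and -0.21.

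All 10 genes are annotated as protein-coding in GRCm38. Nr3c1 lies on chromosome 18, from 39410545 to 39519421. Its counts were 1224 in FLExDUX4 and 1565 in WT, or 94.3 and 84.3 CPM. Its log2 ratio was 0.16 (interval 0.05 to 0.27), and -0.11 with spike-in scaling, so its direction depended on the scaling. A comparison that needs no scaling is the count of each target relative to that of Nr3c1 within the same total. The 4 genes with the widest gaps were higher by that measure, which rests on the same counts and is not separate support. Relative to Nr3c1, the log2 difference between FLExDUX4 and WT was 0.92 for Zbtb16 (interval 0.72 to 1.11), 0.91 for Glul (0.79 to 1.03), 0.79 for Klf15 (0.53 to 1.06) and 0.78 for Fkbp5 (0.57 to 0.99). The intervals for Tsc22d3 and Sgk1 held 0, from -0.11 to 0.15 and from -0.24 to 0.05. Mt1 and Mt2 were higher relative to Nr3c1, by 0.25 (0.07 to 0.43) and 0.39 (0.14 to 0.64), and Ddit4 was lower, by -0.70 (-0.89 to -0.51).

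**Figure D3:**
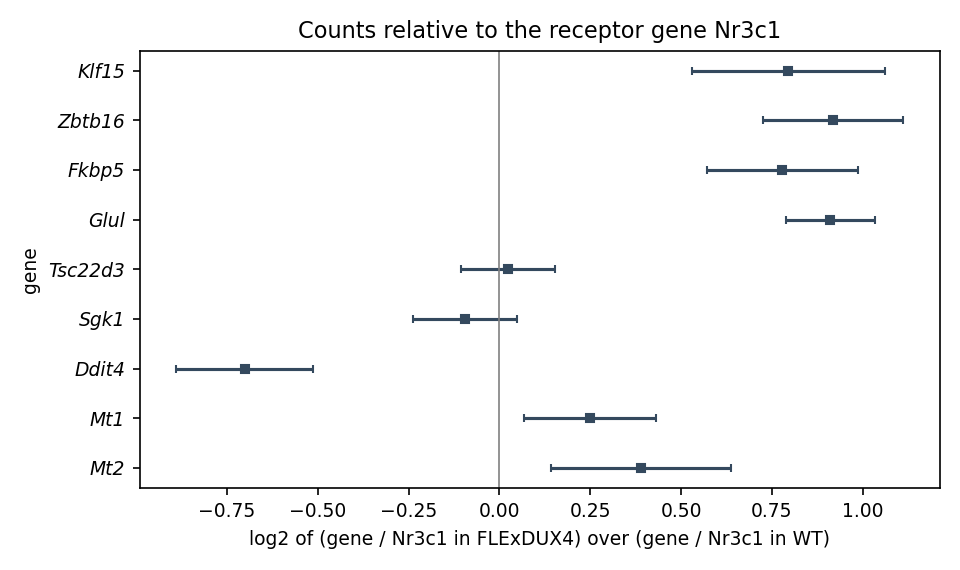
Counts of each gene relative to Nr3c1, as the log2 of the FLExDUX4 ratio over the WT ratio, with exact 95% counting intervals. Zbtb16, Glul, Klf15 and Fkbp5 lie between 0.78 and 0.92, Tsc22d3 and Sgk1 near 0, and Ddit4 at -0.70.

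Of the other genes for the receptor, for hormone activation and for its chaperones, 12 were compared. Of these, 4 had a ratio above 0 and the median was -0.09, or 2 and -0.36 with spike-in scaling. Hsd11b1, which encodes the enzyme that regenerates active glucocorticoid inside cells, had 53 counts against 48 and a log2 ratio of 0.66 (interval 0.07 to 1.254). H6pd, whose product supplies that enzyme with its cofactor, had a ratio of 0.42 (interval 0.19 to 0.65). Hsd11b2, which encodes the inactivating enzyme, had 0 counts in both totals. The mineralocorticoid receptor gene Nr3c2 had a ratio of -0.26 (interval -0.76 to 0.21), and the co-chaperone gene Dnajb1 was counted 66 times against 214, for a ratio of -1.17 (-1.60 to -0.78). Of 12 coregulator genes, none was past 1.5-fold in either direction, beside 13.2% of all genes compared higher and 13.5% lower by that much. With spike-in scaling 1 was lower by that much. Of the 12 genes, 9 had a ratio above 0 under TMM, beside 49.9% of all genes compared, and 4 with spike-in scaling. The coactivator genes Ncoa3 and Ppargc1a had ratios of 0.58 and 0.40, and the corepressor gene Ncor1 of -0.08.

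Klf15 (chromosome 6, 90462576 to 90475238) encodes a Krüppel-like transcription factor known for driving branched-chain amino acid breakdown in muscle. It had 342 counts in FLExDUX4 and 252 in WT, or 26.4 and 13.6 CPM, although the FLExDUX4 total was the smaller of the 2. The FLExDUX4 level was 1.94-fold higher, a log2 ratio of 0.96 (interval 0.72 to 1.20). Among the genes with at least 500 counts, 11 had a higher ratio. The RefSeq promoter window of Klf15, from 250 bases before the first transcribed base, is shown because it holds CACGTG, the E-box letters, in 3 places (chr6:90462326-90462605, GRCm38.p6, plus strand, CACGTG in capitals).
Klf15: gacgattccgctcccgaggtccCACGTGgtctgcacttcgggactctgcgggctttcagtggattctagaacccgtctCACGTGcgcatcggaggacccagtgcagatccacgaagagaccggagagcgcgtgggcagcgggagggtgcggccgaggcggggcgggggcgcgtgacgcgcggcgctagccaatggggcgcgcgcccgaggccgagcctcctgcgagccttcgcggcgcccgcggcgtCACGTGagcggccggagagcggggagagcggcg
Of 32851 RefSeq promoter windows of 300 bases, 7.15% hold CACGTG at least once and 0.0883% at least 3 times, counted on both strands with each palindrome once. Such a match is a description of letters and not of binding.

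Of 10 genes listed as lying downstream of Klf15, 8 were compared, Tat and Bcat1 having too few counts. Of the 8, 6 had a ratio above 0, with a median of 0.16, whereas spike-in scaling gave 2 and -0.11. Bcat2, which encodes the mitochondrial enzyme that starts branched-chain amino acid breakdown, was counted 201 times against 180, for a ratio of 0.68 (0.38 to 0.97). The proline oxidation gene Prodh had a ratio of 0.29 (interval -0.21 to 0.79). Bckdha and Bckdhb, subunits of the next enzyme complex of that breakdown, had ratios of -0.24 (interval -0.41 to -0.07) and -0.22 (interval -0.52 to 0.06). Bcat2 was the gene of that list past 1.5-fold, a share near the 13.2% of all genes compared, and at 0.40 with spike-in scaling it was not past it.

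Zbtb16 (chromosome 9, 48654297 to 48836222) encodes the zinc finger repressor PLZF, a gene known to respond strongly to glucocorticoids. It had 807 counts in FLExDUX4 and 546 in WT, or 62.2 and 29.4 CPM. That is a 2.11-fold higher level, with a log2 ratio of 1.08 (0.92 to 1.24), and the highest ratio of the 10 genes. Among the genes with at least 500 counts, 6 had a higher ratio. The difference between the Klf15 and Zbtb16 ratios was within counting error, with an interval from -0.41 to 0.17.

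Fkbp5 (chromosome 17, with a deposited start at 28399095) encodes FKBP51, an HSP90 co-chaperone that lowers the receptor's affinity for hormone and is itself a receptor target. It had 625 counts in FLExDUX4 and 466 in WT, or 48.2 and 25.1 CPM, a log2 ratio of 0.94 (interval 0.76 to 1.12). Fkbp4, which encodes the competing co-chaperone FKBP52, had 1259 counts against 2016. The count of Fkbp5 relative to Fkbp4 was thus 0.496 in FLExDUX4 and 0.231 in WT, a log2 difference of 1.10 (interval 0.90 to 1.31) that does not depend on the scaling. Fkbp5 and Klf15 were at nearly the same proportion in both totals, 1.83 in FLExDUX4 and 1.85 in WT.

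Glul (chromosome 1, 153899944 to 153909723) encodes glutamine synthetase, which makes glutamine from glutamate and ammonia. It was the most abundant of the 10 genes, with 6526 counts in FLExDUX4 and 4437 in WT, or 503 and 239 CPM. That is a 2.10-fold higher level, with a log2 ratio of 1.07 (1.02 to 1.13), the narrowest interval of the 10. Among the genes with at least 500 counts, 7 had a higher ratio. The processed copy Glns-ps1 had 0 counts in both totals, and Teddm2, which overlaps Glul on the other strand, had 44 and 56.

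Other genes of glutamine synthesis, use and transport did not share the size of the Glul difference. Of 10 compared, none was at least 1.5-fold higher, beside 13.2% of all genes compared. The median was 0.05, or -0.22 with spike-in scaling. The amino acid transporter genes Slc3a2 and Slc1a5 had ratios of 0.41 (interval 0.23 to 0.59) and 0.30 (interval 0.01 to 0.58). The aspartate transaminase gene Got2 had a ratio of -0.14 (-0.20 to -0.08). Slc38a1, with 11 counts against 34, was the gene past 1.5-fold lower, beside 13.5% of all genes compared, and with spike-in scaling Slc7a5 was also past it.

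**Figure D4:**
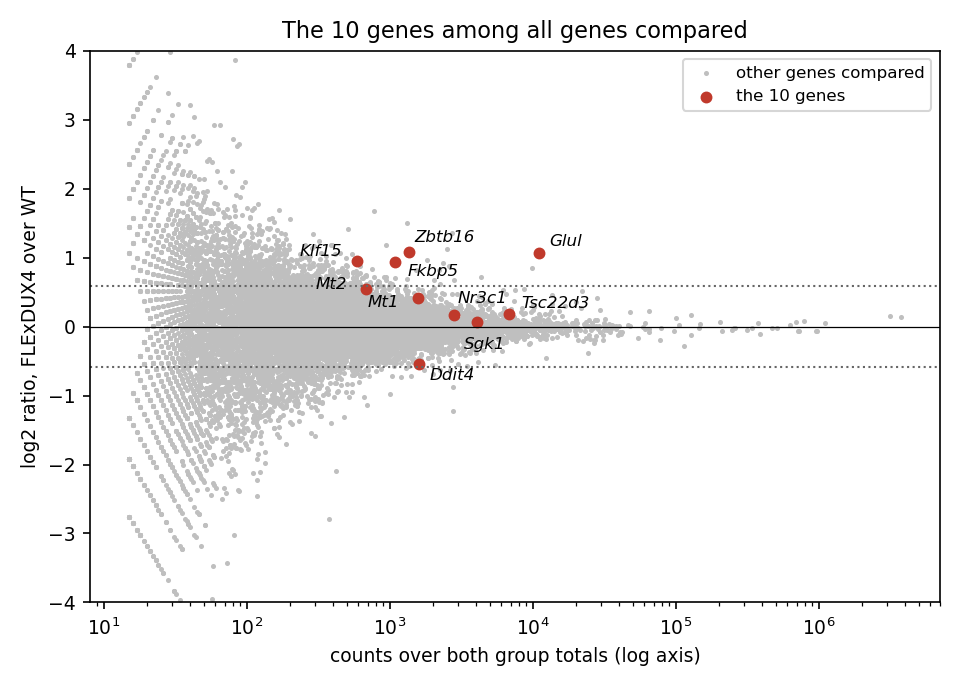
Log2 ratio of FLExDUX4 over WT against the counts over both totals (log axis) for the 10 genes (red) and the other genes compared (grey); dotted lines mark 1.5-fold, and 109 genes lie outside the vertical axis. The grey points narrow as counts increase, and Zbtb16, Glul, Klf15 and Fkbp5 lie along the upper edge at their counts.

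Tsc22d3 (chromosome X, 140539528 to 140600659) encodes GILZ, a leucine zipper protein that carries part of the anti-inflammatory action of glucocorticoids. It was the second most abundant gene of the set, with 3023 counts in FLExDUX4 and 3805 in WT, or 233 and 205 CPM. Its log2 ratio was 0.18 (interval 0.12 to 0.25), and -0.091 with spike-in scaling, so its direction is not settled by these totals. The count relative to its paralog Tsc22d1 was 2.81 in FLExDUX4 and 2.60 in WT, and the interval of that log2 difference held 0 (-0.02 to 0.25). The table pools the 3 annotated coding transcripts of Tsc22d3, which begin at 3 different starts.

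The other anti-inflammatory targets went both ways. Of 8 compared, 2 were at least 1.5-fold higher and 3 at least 1.5-fold lower under both scalings, beside 13.2% and 13.5% of all genes under TMM, with a median of -0.16, or -0.44 with spike-in scaling. Under TMM the sign of the median rested on genes with few counts. It was 0.045 when the genes listed and those used for TMM were limited to at least 10 counts in each total. That filter was not tried with spike-in scaling. Cd163, a macrophage scavenger receptor gene, had a ratio of 0.92 (interval 0.57 to 1.26) and Anxa1, for the glucocorticoid-induced annexin A1, of 0.90 (interval 0.59 to 1.21). Zfp36, whose product destabilizes inflammatory mRNAs, was counted 35 times against 88, for a ratio of -0.80 (-1.42 to -0.23). Tnfaip3 and Il1r2 were lower at 7 against 37 and 5 against 26 counts. Nfkbia, which encodes the inhibitor of NF-κB, had a ratio of -0.10, and the upper end of its interval was just below 0.

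Sgk1 (chromosome 10, 21882184 to 21999903) encodes a kinase of ion channels and transporters that was named for its response to serum and glucocorticoids. It had 1709 counts in FLExDUX4 and 2334 in WT, or 132 and 126 CPM. Its ratio on the log2 scale was 0.07 (-0.02 to 0.16), the only one of the 10 whose TMM interval held 0, and -0.21 (interval -0.30 to -0.12) with spike-in scaling. The window before one of its 6 RefSeq starts is shown because it holds the full palindrome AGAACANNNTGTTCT, the receptor's consensus site, which 3 of the 32851 windows (0.00913%) hold (chr10:21993640-21993919, GRCm38.p6, plus strand, palindrome in capitals).
Sgk1: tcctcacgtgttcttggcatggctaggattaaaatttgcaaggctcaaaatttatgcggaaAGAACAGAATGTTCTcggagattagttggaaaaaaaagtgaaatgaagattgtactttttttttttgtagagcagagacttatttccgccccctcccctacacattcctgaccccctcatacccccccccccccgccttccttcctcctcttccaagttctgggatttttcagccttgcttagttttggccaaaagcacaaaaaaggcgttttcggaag
The palindrome runs from -189 to -175, with the first transcribed base as 0. Of the 10 genes, 8 matched a RefSeq window, 15 windows in all, and the palindrome was in none of the other 14. The shorter half-site TGTTCT, which forms either arm of the palindrome, is in 19.0% of all windows and in 4 of these 15, the one shown, 2 others of Sgk1 and 1 of Tsc22d3. No match says only that these letters are not in the window.

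Ddit4 (chromosome 10, 59949669 to 59951834) encodes REDD1, an inhibitor of mTORC1 signaling that is induced by glucocorticoids, low oxygen and other stresses. It was the gene that went the other way, with 521 counts in FLExDUX4 and 1083 in WT, or 40.2 and 58.4 CPM. That is a log2 ratio of -0.54 (-0.69 to -0.39) and a 1.45-fold lower level, just short of the 1.5-fold limit, and -0.81 with spike-in scaling. Among the genes with at least 500 counts, 55 had a lower ratio. Its paralog Ddit4l, which is strongly expressed in muscle, was also lower, counted 4186 times against 8200, for a ratio of -0.45 (-0.51 to -0.40). The count of Ddit4 relative to Ddit4l was 0.124 in FLExDUX4 and 0.132 in WT, a difference within counting error (interval -0.25 to 0.08).

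Of 12 genes of the pathways on which Sgk1 and Ddit4 act, 6 had a ratio above 0, 1 was past 1.5-fold under either scaling, beside 13.5% of all genes lower by that much, and the median was -0.00050, or -0.28 with spike-in scaling. The gene past 1.5-fold was Rptor, for the mTORC1 scaffold protein raptor, counted 83 times against 255, for a ratio of -1.10 (-1.48 to -0.74). Tsc2, which encodes the complex member through which REDD1 acts, had a ratio of -0.29 (interval -0.53 to -0.06). Foxo3 and Gsk3b had ratios of 0.31 (interval 0.06 to 0.55) and 0.27 (interval 0.20 to 0.34). The latter was -0.01 with spike-in scaling.

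Mt1 and Mt2 encode small cysteine-rich proteins that bind zinc and copper. They lie side by side on chromosome 8, Mt2 at 94172664 to 94173568 and Mt1 at 94179082 to 94180327, with 5513 bases between them. Mt1 had 757 counts in FLExDUX4 and 814 in WT, or 58.3 and 43.9 CPM, a log2 ratio of 0.41 (interval 0.27 to 0.56). Mt2 had 343 counts against 335, or 26.4 and 18.1 CPM, a ratio of 0.55 (interval 0.33 to 0.77), a 1.46-fold higher level. With spike-in scaling the ratios were 0.14 and 0.27, and the interval of Mt1 held 0. The count of Mt1 relative to Mt2 was 2.21 in FLExDUX4 and 2.43 in WT, a log2 difference of -0.14 (interval -0.40 to 0.13), so no difference between the neighbors in their ratio was detectable at this depth. The longest exact run that their annotated transcripts share was 20 bases, shorter than an untrimmed read of this assay. Both RefSeq windows are shown because they hold the core letters of the metal response element, TGCACNC or TGCGCNC on either strand, in several places (Mt1 chr8:94178839-94179118 and Mt2 chr8:94172368-94172647, GRCm38.p6, plus strand, matches in capitals).
Mt1: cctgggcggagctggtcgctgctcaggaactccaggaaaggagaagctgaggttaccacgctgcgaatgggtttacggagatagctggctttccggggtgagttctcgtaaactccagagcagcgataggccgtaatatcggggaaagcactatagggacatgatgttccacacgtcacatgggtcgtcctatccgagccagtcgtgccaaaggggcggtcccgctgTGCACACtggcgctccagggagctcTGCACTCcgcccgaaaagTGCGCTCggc
Mt2: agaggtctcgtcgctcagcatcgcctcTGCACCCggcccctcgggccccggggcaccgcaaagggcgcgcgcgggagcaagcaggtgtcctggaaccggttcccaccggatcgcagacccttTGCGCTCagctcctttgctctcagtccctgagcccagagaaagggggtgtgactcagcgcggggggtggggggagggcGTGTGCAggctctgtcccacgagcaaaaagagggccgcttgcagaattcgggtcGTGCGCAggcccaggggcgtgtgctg
There are 3 matches in the Mt1 window and 4 in the Mt2 window. Of all windows 25.7% hold at least 1, 1.97% at least 3 and 0.517% at least 4. Neither window holds the receptor palindrome or its half-site.

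Of 9 genes of metallothionein regulation and zinc transport, 2 were at least 1.5-fold higher, beside 13.2% of all genes compared, and 2 at least 1.5-fold lower, beside 13.5%. With spike-in scaling these were 0 and 3, Hif1a being the gene added. Mtf1, which encodes the zinc-sensing factor that binds the metal response element, was counted 179 times against 408, for a ratio of -0.67 (-0.93 to -0.42), opposite to Mt1 and Mt2. The zinc transporter genes Slc39a14 and Slc30a5 had ratios of 0.70 (interval 0.17 to 1.22) and 0.61 (interval 0.23 to 0.99), and Slc30a7 of -0.77 (interval -1.33 to -0.25). Of the other metallothionein genes, Mt3 had 13 counts against 5 and Mt4 had 0 in both. Of 15 paralogs of the 10 genes, Mt3 at these few counts was the one past 1.5-fold, beside 13.2% of all genes higher by that much. With spike-in scaling Ddit4l was also past it, at -0.73. The median was -0.09, or -0.37 with spike-in scaling. Fkbp8 and Tsc22d2 followed at 0.26 and 0.23, and both were below 0 with spike-in scaling.

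The wider list of glucocorticoid targets in muscle held 22 genes, of which 16 had a ratio above 0, with a median of 0.30. With spike-in scaling these were 13 and 0.02. At least 1.5-fold higher were 4 of them, beside 13.2% of all genes compared. These were the transcription factor gene Foxo1 at 1.51 (interval 1.34 to 1.68), the pyruvate dehydrogenase kinase gene Pdk4 at 0.85 (interval 0.80 to 0.91), the clock gene Per1 at 0.71 (interval 0.53 to 0.88) and Arrdc2 at 0.59 (interval 0.40 to 0.78). With spike-in scaling Foxo1 alone of them was past 1.5-fold, at 1.23, and Pdk4, Per1 and Arrdc2 had ratios of 0.58, 0.43 and 0.31. Angptl4, with 13 counts against 41, was the one past 1.5-fold lower, at -1.10 (interval -2.17 to -0.21), and Irs2 had a ratio of -0.31 (interval -0.51 to -0.12), past 1.5-fold lower (-0.59) with spike-in scaling. The 3 ubiquitin ligase genes of the list were named after their values were seen. Cblb had a ratio of 0.46 (0.13 to 0.79), Trim63 was counted 2294 times against 2536, for a ratio of 0.37 (0.29 to 0.45), and Fbxo32 4826 times against 7053, for a ratio of -0.03 (-0.08 to 0.02). Over all lists, 105 genes other than the 10 were compared. Of these, 11 (10.5%) were at least 1.5-fold higher, beside 13.2% of all genes compared, and 9 (8.57%) at least 1.5-fold lower, beside 13.5%. With spike-in scaling 4 of the 105 were higher by that much and 14 lower.

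**Figure D5:**
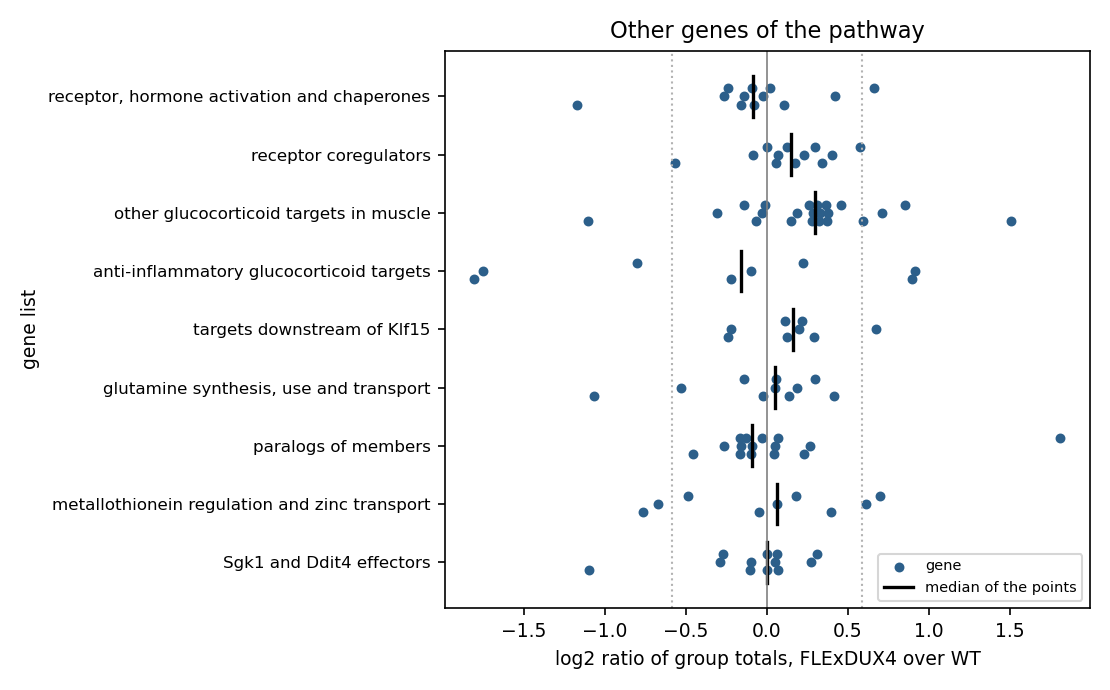
Log2 ratio of FLExDUX4 over WT for each gene compared in 9 lists of the pathway, without the 10 genes; black bars are medians and dotted lines mark 1.5-fold. The list of other glucocorticoid targets in muscle has the highest median, 0.30 under TMM and 0.02 under spike-in scaling, and the other TMM medians run from -0.16 to 0.16.

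The tissue was skeletal muscle by its markers, since the summed level of 8 muscle genes was 127497 CPM in FLExDUX4 and 129197 CPM in WT. Of 7 adipocyte genes 6 had a ratio above 0 (4 with spike-in scaling), and their summed level was 389 CPM in FLExDUX4 and 306 CPM in WT. At least 1.5-fold higher were 3 of them, beside 13.2% of all genes compared, or Cfd alone with spike-in scaling. These were the secreted-factor genes Cfd at 0.88 (interval 0.76 to 0.99), Adipoq at 0.70 (0.46 to 0.95) and Retn at 0.69 (0.18 to 1.20). Lep, counted 12 times against 31, was at least 1.5-fold lower at -0.82 (-1.95 to 0.15), and Fabp4, which makes up most of the sum, had a ratio of 0.11 (0.05 to 0.18). All 5 erythroid genes were higher, with sums of 1279 and 1019.8 CPM, though Hba-a1 was not with spike-in scaling. The sums for endothelium were 163 and 185 CPM, for macrophages and leukocytes 77.1 and 79.4, for fibro-adipogenic progenitors 853 and 819.6, for satellite cells 27.9 and 30.9 and for Schwann cells 145 and 137. Of 6 macrophage and leukocyte markers, Adgre1 and Cd68 were at least 1.5-fold lower, beside 13.5% of all genes compared. So were Pax7 of the 3 satellite cell markers compared and Sox10 of 5 Schwann cell markers. All had 89 counts or fewer in a total. No endothelial or fibro-adipogenic progenitor marker was lower by that much, though Kdr and Emcn of endothelium were with spike-in scaling. No marker was at 0 in both totals. The part of these cells in the ratios of the 10 genes was not tested, and in bulk muscle fewer cells of a type and less RNA per cell cannot be told apart. The human DUX4 transcript was not analysed here, the mouse gene Duxf3 had 0 counts in both totals, and the host locus transcript Gt(ROSA)26Sor had 63 in each, a log2 ratio of 0.52 whose interval held 0 (-0.01 to 1.04). The labels were not checked by the transgene itself.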

How the data were processed

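RNA from muscle of 3 FLExDUX4 and 3 WT male mice was sequenced by QuantSeq. Per the methods and the submitters' processing notes, the authors removed adapters and polyA stretches (Cutadapt 1.16), mapped reads to GRCm38 plus the ERCC and SIRV spike-ins (STAR 2.5.3a) and counted them per gene (featureCounts 1.6.2); whether counting used strand is not given in the sources used here. The deposited counts used are raw totals for each genotype, without normalization. The 6 columns of single-sample values match no label and were not used, nor were the authors' fold changes, p-values and mean normalized counts. The planned edgeR quasi-likelihood test needs values of single mice and was not run.

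Totals were scaled by TMM (edgeR 4.0.16, R 4.3.3) over genes kept by filterByExpr, with spike-ins left out. Log2 ratios used a pseudocount of 0.5. Intervals are 95% Clopper-Pearson for ratios, exact Poisson for levels and exact conditional for ratios of 2 genes (Python 3.11.15, scipy 1.17.1), checked on simulated counts. The 10 genes and the lists were chosen with earlier results of these data known, so no list was tested. Named from each list were the 2 highest and 2 lowest ratios among genes with at least 50 counts, and genes a counted statement turns on; 2 genes that this rule names are not reported here. Gene positions are from GENCODE M21 (GRCm38) where its start equals the deposited one. Promoter windows are from RefSeq (GRCm38.p6), 250 bases before to 50 after a start, printed up to 30 bases into the transcript.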

Additional observations from a re-analysis of the deposited data

How the results depend on the processing

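No paired analysis was possible because the headings of the 6 single-sample columns carry no replicate number. The columns look like the parts of the 2 totals, and assigning them to genotypes from their values was a step not taken. Tests across mice, with DESeq2 or edgeR, and leaving out each replicate in turn were therefore not run, and the spread between mice behind any ratio is not given. RLE, upper quartile, gene totals, a pseudocount of 5, no filter and a filter of 10 counts per total left all 10 log2 ratios inside their counting intervals. Spike-in totals moved each of the 10 outside its interval: Nr3c1 became -0.11, Tsc22d3 -0.091 and Sgk1 -0.21, all with a changed sign, Klf15 0.68, Zbtb16 0.80, Fkbp5 0.66, Glul 0.80, Ddit4 -0.81, Mt1 0.14 and Mt2 0.27. Why the spike-in scaling shifts the ratios was not tested. With spike-in totals 4 of the 10 genes were still at least 1.5-fold higher and 1 (Ddit4) was lower, and of the other listed genes 4 were higher and 14 lower, in place of 11 and 9. With a limit of 2-fold, 2 of the 10 genes were higher, and with the lower limit tried 6 were higher and 1 was lower (Ddit4). The share of all genes past a limit was counted only under TMM scaling and at 1.5-fold, so none stands beside these counts. With spike-in totals the median of all genes compared was -0.28. The median of the anti-inflammatory list was 0.05 over its genes with at least 10 counts in each total, in place of -0.16.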
